A study of Mus musculus with 12 samples.

Results

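Genes that mark the distal convoluted tubule and the connecting tubule, the nephron segments between the thick ascending limb and the collecting duct, were followed in sorted renal tubular epithelial cells (TECs). These 9 genes were Slc12a3, Pvalb, Calb1, Trpm6, Trpv5, Wnk4, Wnk1, Klhl3 and Slc8a1. They were chosen by gene symbol, as 9 of the 50433 genes of the TEC count table, and every one of them passed the filter on low counts. RNA-seq had been performed on TECs and blood neutrophils (PMNs) of wild-type mice after renal ischemia-reperfusion injury (IRI), in which the renal pedicles are clamped for a time. The comparison asked how gene expression in these cells differed between glutamine and vehicle treatment. Per the study's methods the animals were young adult male C57BL/6J mice, glutamine was given intravenously after reperfusion, and the vehicle was physiologic saline. All 12 libraries came from cells taken 24 hours after IRI, so both groups carried the injury and no uninjured group was analysed here.

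The TEC groups held 3 libraries each, glutamine replicates 1, 2 and 3 and vehicle replicates 3, 4 and 5. Kidney cells without CD45 and with Prominin-1 on their surface had been sorted. The study describes Prominin-1 as a surface marker of proximal tubules, so distal cells were not what the gate aimed at. The labels number the libraries and do not say whether cells of several mice were pooled, so the p-values below measure the spread between these libraries, which may in part be technical. In bulk RNA, fewer cells of a type and less RNA per cell cannot be told apart.

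The distal convoluted tubule reabsorbs sodium chloride through the thiazide-sensitive cotransporter NCC, encoded by Slc12a3. The kinases WNK4 and WNK1 switch NCC on through the kinase SPAK, and KLHL3 is the substrate adaptor of a ubiquitin ligase that removes WNK kinases. The same cells take up magnesium through TRPM6, and the late distal convoluted and connecting tubules take up calcium through TRPV5, carry it on calbindin-D28k (Calb1) and return it to the blood through the sodium-calcium exchanger NCX1 (Slc8a1). Parvalbumin (Pvalb) is a calcium-binding protein of the early distal convoluted tubule. Human mutations of SLC12A3 cause the salt-wasting Gitelman syndrome, and mutations of WNK1, WNK4 or KLHL3 cause familial hyperkalemic hypertension.

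RefSeq promoter windows on GRCm38.p6, each 300 bases long from 250 bases before to 50 bases after a transcription start, were given for 8 of the 9 members, with 9 windows in all since Pvalb had 2. A pair of motifs was searched on both strands. TATAAA, the TATA box, was found for 2 members and in 13.6% of 32851 promoters. AGAACA, a steroid receptor core, was found in 1 window (the other Pvalb window) and in 19.0% of promoters. The windows of Slc12a3 (chr8:94328958-94329257, plus strand) and Trpv5 (chr6:41680674-41680973, minus strand) are shown because they held the TATAAA matches, in capitals, whose first base lay at -32 and -43 from the start. That of Pvalb (chr15:78206351-78206650, minus strand) is shown because Pvalb had the highest fitted fold change of the members and no match in it. A match is a run of letters and was not tested as a binding site.
Slc12a3: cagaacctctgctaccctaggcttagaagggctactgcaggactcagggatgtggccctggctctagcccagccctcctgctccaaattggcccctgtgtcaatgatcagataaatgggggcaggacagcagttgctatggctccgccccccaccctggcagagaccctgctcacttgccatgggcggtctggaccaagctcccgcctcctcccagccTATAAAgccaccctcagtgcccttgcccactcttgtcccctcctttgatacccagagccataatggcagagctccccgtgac
Trpv5: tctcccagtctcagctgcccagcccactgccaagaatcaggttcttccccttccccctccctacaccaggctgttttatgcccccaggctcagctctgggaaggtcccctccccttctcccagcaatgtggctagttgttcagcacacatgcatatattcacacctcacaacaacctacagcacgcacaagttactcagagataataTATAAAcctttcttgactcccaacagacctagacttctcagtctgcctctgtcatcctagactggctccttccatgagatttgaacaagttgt
Pvalb: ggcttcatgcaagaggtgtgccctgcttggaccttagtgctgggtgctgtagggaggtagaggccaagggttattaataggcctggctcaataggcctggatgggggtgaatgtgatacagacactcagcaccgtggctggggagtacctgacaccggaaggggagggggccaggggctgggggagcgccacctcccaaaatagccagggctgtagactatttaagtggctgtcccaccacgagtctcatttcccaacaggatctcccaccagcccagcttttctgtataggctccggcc

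The TEC libraries held from 5397370 counts in glutamine replicate 2 to 10223461 counts in vehicle replicate 4, and the 9 members took up 0.0259% to 0.0431% of them. Levels are given as CPM, the estimated count of a gene per 1000000 counts of its library, after scaling by edgeR's TMM factors. Prom1, the sort marker, lay between 64.6 and 83.5 CPM, and Ptprc, which encodes CD45, between 0.102 and 2.74 CPM. The phosphate transporter gene Slc34a1, a defining marker of proximal tubules, lay between 1298 and 2711 CPM. All 9 members had at least 7 counts in every TEC library, so their transcripts were present in libraries from a gate aimed at proximal tubules. Which cells held them cannot be told from bulk RNA. One TEC library stood apart within its group: the summed level of 6 tubular injury markers was 3987 CPM in vehicle replicate 5, against 9669 and 11630 CPM in the other vehicle libraries and 4455 to 6726 CPM with glutamine. Spp1, the highest of the 6, had 6608, 6323 and 1784 CPM in vehicle replicates 3, 4 and 5. Krt20 and Sox9 went the other way, from 520 and 93.1 CPM in vehicle replicate 3 to 1206 and 185 CPM in vehicle replicate 5. For members, values without vehicle replicate 5 are given where they moved by more than 1.5 times, changed sign or ended an unadjusted call.

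Per kilobase of the longest coding transcript, a scale on which genes can be compared, Slc12a3 and Wnk1 were the highest members with vehicle, at 13.2 ± 6.77 and 12.9 ± 1.1 CPM per kb (SD, n = 3), and did not differ beyond their spread. Calb1 (6.18 ± 0.194), Wnk4 (5.10 ± 2.07), Pvalb (4.26 ± 4.28) and Trpv5 (3.69 ± 1.22 CPM per kb) followed, each overlapping its neighbour in this order. Trpm6 had a lower mean of 1.37 ± 0.615 but overlapped Pvalb, and Klhl3 (0.422 ± 0.248) and Slc8a1 (0.233 ± 0.175 CPM per kb) were lowest and overlapped each other. With glutamine the order was Slc12a3 at 24.6 ± 9.67, Wnk1 at 15.2 ± 2.35, Pvalb at 14.5 ± 8.13, Calb1 at 10.5 ± 0.694, Wnk4 at 6.97 ± 2.76 and Trpv5 at 4.27 ± 0.898 CPM per kb, and Trpm6, Klhl3 and Slc8a1 again came last in that order. The glutamine libraries of Slc12a3 and Wnk1 overlapped on this scale, as did those of Wnk4 and Trpv5. Those of Pvalb overlapped Slc12a3, Wnk1, Calb1 and Wnk4. The order depends on the length used: over all annotated exons, Wnk1 and Calb1 came before Slc12a3 with vehicle.

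Between the groups, 9 of 9 members had a higher fitted level with glutamine, where 50.6% of the 14734 tested genes did, although Slc8a1 turned lower under scaling by total counts or without glutamine replicate 2, and both Slc8a1 and Trpv5 turned lower without vehicle replicate 5. The median log2 fold change of the members was 0.64, against 0.0069 over all tested genes. None of the members passed an adjusted p of 0.05 in the quasi-likelihood test of edgeR, adjusted by the Benjamini-Hochberg method over all tested genes, and 0% of the tested genes did. At an unadjusted p below 0.05 there were 3 members, Calb1, Pvalb and Slc12a3, all higher, where 7.23% of tested genes were called higher and 12.7% in either direction. DESeq2 and limma-voom also passed 0 members at an adjusted p of 0.05, and 190 and 0 genes over the whole table. Without the expression filter, edgeR passed 2 members, Pvalb and Slc12a3, beside 425 of 29116 genes. Scaling by total counts moved the median of all tested genes to -0.16 and the share of higher genes to 38.4%. By adjusted p, then, no member was called changed by the planned test, and the confidence intervals below give the sizes that remained possible.

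**Figure D1:**
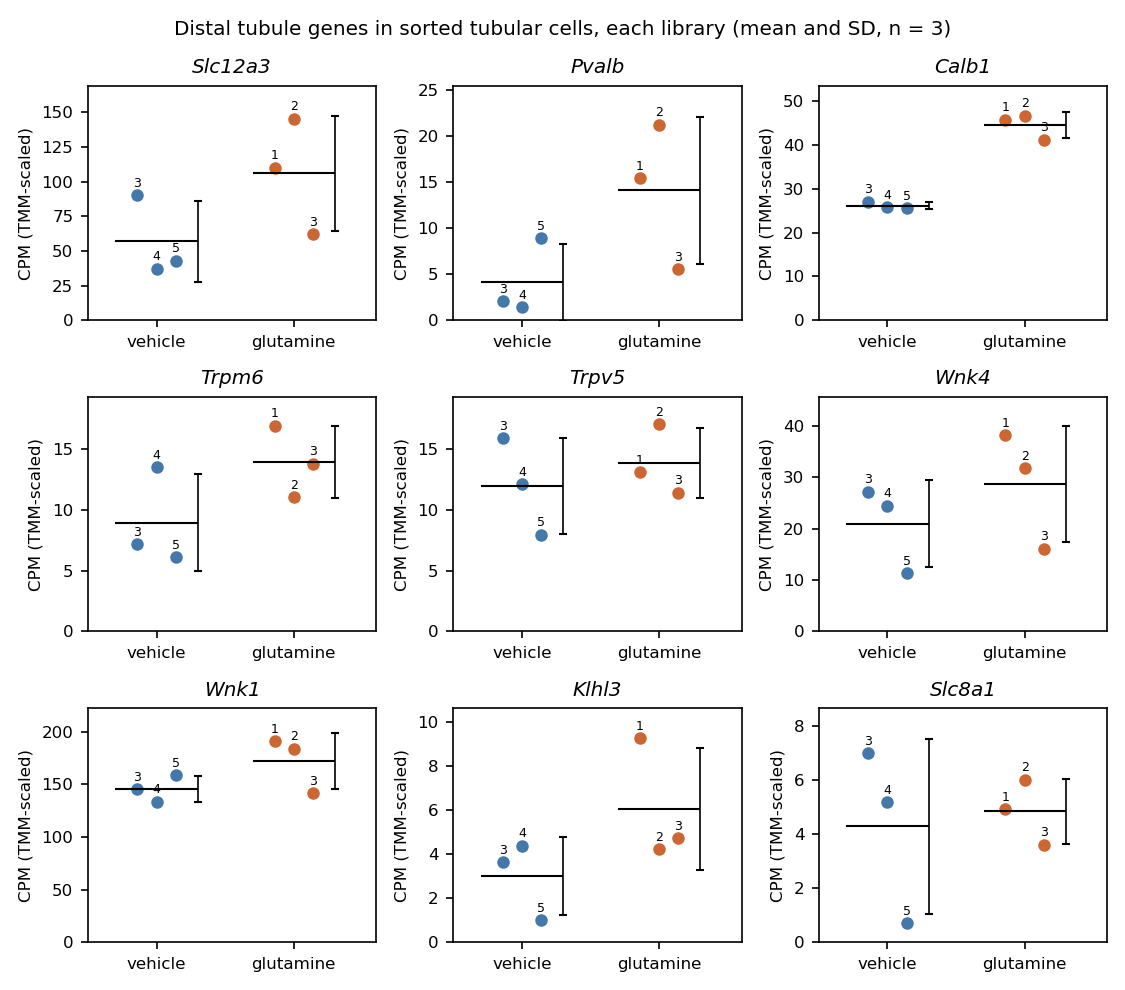
Level of each of the 9 members in each TEC library (vertical axes, TMM-scaled CPM from 0), with points numbered by replicate, vehicle in blue and glutamine in orange, and lines and bars for the mean and SD (n = 3). The glutamine libraries of Calb1 lie above all its vehicle libraries, and the groups of the other 8 members overlap.

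Slc12a3, which encodes NCC, lies on chromosome 8 (94329201-94366214, plus strand, GRCm38, GENCODE M21). Its level was 90.5, 37.4 and 43.0 CPM in vehicle replicates 3, 4 and 5, and 110.3, 145 and 62.4 CPM in glutamine replicates 1, 2 and 3. Vehicle replicate 3 was well above the other vehicle libraries and exceeded glutamine replicate 3, so the groups overlapped. The means were 56.9 ± 29.2 CPM and 106 ± 41.7 CPM (SD, n = 3), a log2 fold change of 0.89 ± 0.38 (SE; 95% confidence interval 0.066 to 1.72), with an adjusted p of 0.359 in edgeR's test. It was 0.60 without glutamine replicate 2 and 1.39 without vehicle replicate 3. Without vehicle replicate 5 it was 0.72 and under scaling by total counts 0.71, and in both Slc12a3 no longer had an unadjusted p below 0.05. The same held without vehicle replicate 4 and without glutamine replicate 1 or 2.

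The WNK kinases and KLHL3, the regulators of NCC among the members, had overlapping groups. Wnk4 (chromosome 11, 101260567-101277409, plus strand) had 27.2, 24.5 and 11.3 CPM with vehicle and 38.2, 31.7 and 16.1 CPM with glutamine, in replicate order. Replicate 5 of the vehicle group and replicate 3 of the glutamine group were low for Wnk4, and each group's other libraries were close to each other. Its log2 fold change was 0.45 ± 0.39 (SE; 95% confidence interval -0.41 to 1.30; adjusted p = 0.660 in edgeR's test), and 0.14 without vehicle replicate 5. An annotated antisense gene, Gm11615, touches exons of Wnk4, and reads of the pair cannot be told apart where counting ignores strand.

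Wnk1 (chromosome 6, 119923969-120038672, minus strand) had the tightest interval of the members. Its level was 145, 134 and 158 CPM with vehicle and 191, 184 and 142 CPM with glutamine. Glutamine replicate 3 lay among the vehicle libraries and the other glutamine libraries above them. Its log2 fold change was 0.24 ± 0.20 (SE; 95% confidence interval -0.20 to 0.68; adjusted p = 0.644 in edgeR's test). The gene-level count sums 26 annotated transcripts, so the kidney-specific short form of Wnk1, which lacks the kinase domain, was not seen apart from the full-length kinase.

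Klhl3 (chromosome 13, 58000228-58113592, minus strand) was a low gene, with 10 to 77 counts a library. Its level was 3.65, 4.39 and 1.02 CPM with vehicle and 9.25, 4.22 and 4.71 CPM with glutamine. Vehicle replicate 5 was lowest and glutamine replicate 1 highest, and the remaining libraries of both groups lay together. Fitted over all libraries, the log2 fold change was 1.0 ± 0.60 (SE; 95% confidence interval -0.33 to 2.34; adjusted p = 0.508 in edgeR's test). It came to 0.59 without vehicle replicate 5 and 0.56 without glutamine replicate 1.

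Among the calcium-handling members, Calb1 (chromosome 4, 15881264-15908064, plus strand) separated the groups. The level of this cytosolic calcium carrier was 27.0, 25.8 and 25.5 CPM with vehicle and 45.6, 46.6 and 41.1 CPM with glutamine. The libraries of each group lay close together and every glutamine library was above every vehicle library, which held for 1 of the 9 members and for 9.01% of tested genes (the reverse order held for 0 members and 9.81% of genes). The means were 26.1 ± 0.821 and 44.5 ± 2.93 CPM (SD, n = 3). This gave a log2 fold change of 0.77 ± 0.21 (SE; 95% confidence interval 0.31 to 1.23), with an adjusted p of 0.223 in edgeR's test. Over the sets that left out each library in turn it ran from 0.73 to 0.82, and over the other settings from 0.60 to 0.82. An exact permutation test of 3 against 3 libraries cannot give a two-sided p below 0.1.

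Pvalb (chromosome 15, 78191114-78206400, minus strand), the early distal convoluted tubule marker, had 2.07, 1.43 and 8.97 CPM with vehicle and 15.5, 21.3 and 5.59 CPM with glutamine. Vehicle replicate 5 exceeded glutamine replicate 3, and the other vehicle libraries, at 21 and 16 counts, lay below every glutamine library. The log2 fold change was 1.76 ± 0.69 (SE; 95% confidence interval 0.25 to 3.27), the highest of the members, with an adjusted p of 0.332 in edgeR's test. Without vehicle replicate 5 the log2 fold change was 2.99. Pvalb no longer had an unadjusted p below 0.05 without vehicle replicate 3 or 4, or without glutamine replicate 1 or 2.

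Trpv5 (chromosome 6, 41652173-41680769, minus strand), the apical calcium channel, had 15.9, 12.1 and 7.95 CPM with vehicle and 13.1, 17.1 and 11.4 CPM with glutamine. The groups lay over each other, with vehicle replicate 5 lowest. Its log2 fold change was 0.20 ± 0.34 (SE; 95% confidence interval -0.55 to 0.96; adjusted p = 0.832 in edgeR's test), and -0.024 without vehicle replicate 5.

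Slc8a1 (chromosome 17, 81373105-81738377, minus strand), the basolateral exchanger gene, had 7.0, 5.20 and 0.713 CPM with vehicle and 4.93, 6.03 and 3.62 CPM with glutamine. Vehicle replicate 5 held 7 counts against 71 and 58 in the other vehicle libraries, and vehicle replicate 3 was the highest library of all. Over all libraries the log2 fold change was 0.16 ± 0.68 (SE; 95% confidence interval -1.34 to 1.67; adjusted p = 0.941 in edgeR's test), and -0.34 without vehicle replicate 5. The interval covers more than a doubling in either direction, so these libraries did not exclude a difference of that size. Exons of Slc8a1 are touched on the other strand by Gm11096 and by an antisense gene, and their reads cannot be told apart where counting ignores strand.

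Trpm6 (chromosome 19, 18749983-18892511, plus strand), the magnesium channel, had 7.20, 13.5 and 6.11 CPM with vehicle and 16.9, 11.05 and 13.8 CPM with glutamine. Vehicle replicate 4 was about as high as glutamine replicate 3 and above glutamine replicate 2. The log2 fold change was 0.64 ± 0.38 (SE; 95% confidence interval -0.19 to 1.47; adjusted p = 0.497 in edgeR's test). It was 1.07 without vehicle replicate 4 and 0.43 without vehicle replicate 5.

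**Figure D2:**
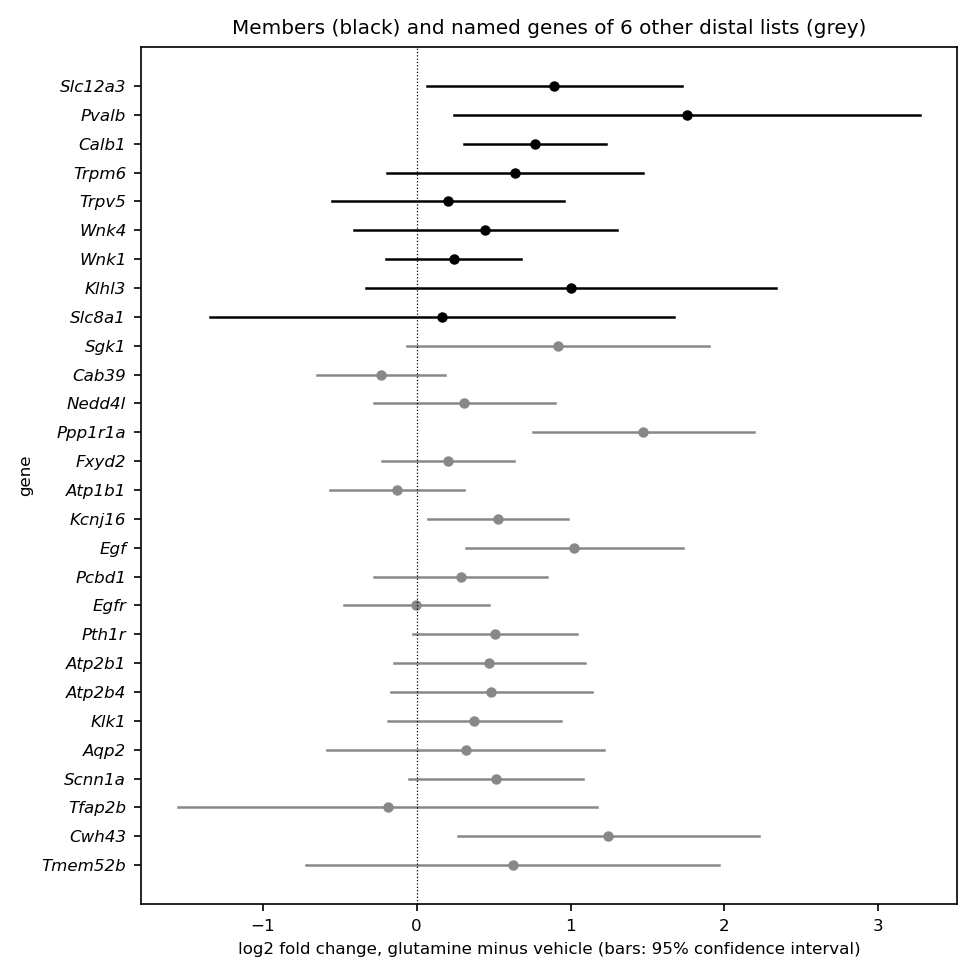
Log2 fold change (horizontal axis, glutamine minus vehicle; bars, 95% confidence interval) of the 9 members in black and of the named genes of 6 other distal lists in grey. The intervals, not adjusted for the number of genes tested, lie above 0 for Slc12a3, Pvalb and Calb1 and include 0 for the other 6 members.

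The lowest library of a member was vehicle replicate 5 for 6 members and vehicle replicate 4 for 3. The highest was glutamine replicate 1 for 4 members, glutamine replicate 2 for 4, and vehicle replicate 3 for Slc8a1. Among the glutamine libraries, replicate 3 was lowest for all members but Trpm6 and Klhl3. Left out in turn, no library brought a member past the adjusted p of 0.05 in edgeR's test. The count of members with an unadjusted p below 0.05 was 1, Calb1, without glutamine replicate 1 and again without glutamine replicate 2, and 2 or 3 without any other library.

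**Figure D3:**
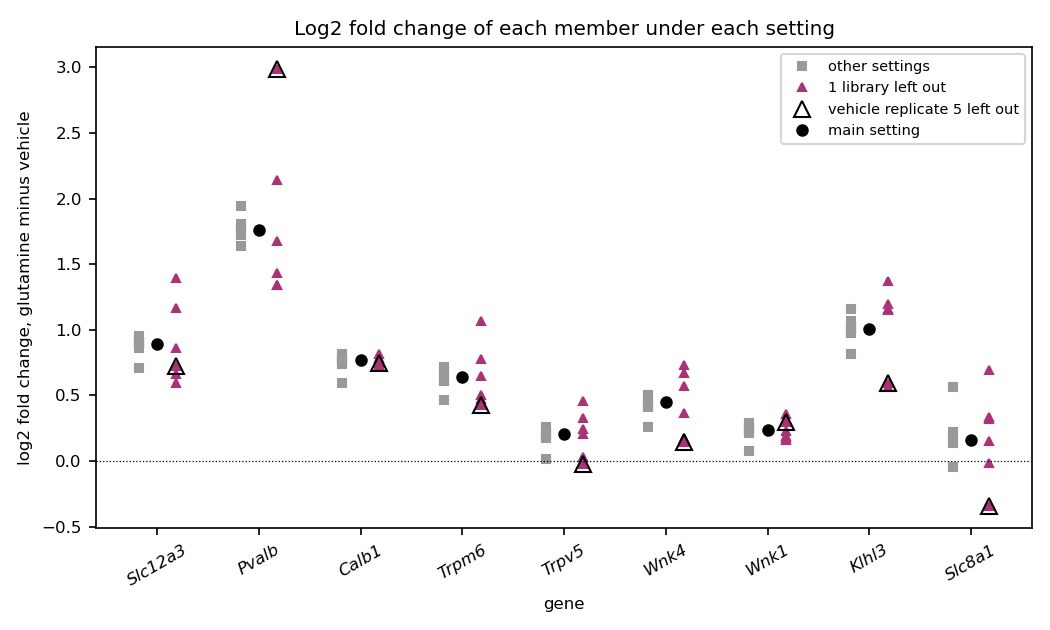
Log2 fold change of each member (vertical axis, glutamine minus vehicle) under the planned setting (black), without each library in turn (purple, vehicle replicate 5 outlined) and under the other normalizations, filters and tools (grey). Calb1 stays between 0.60 and 0.82, Pvalb reaches 2.99 without vehicle replicate 5, and Trpv5 and Slc8a1 fall below 0 there.

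Ratios within a library, which no scaling between libraries alters, differed among the members. Calb1 counts per Slc12a3 count were 0.299, 0.691 and 0.592 with vehicle and 0.414, 0.320 and 0.659 with glutamine. The groups overlapped, and the 2 genes did not keep a fixed ratio within either group. Pvalb counts per Slc12a3 count were 0.0229, 0.0384 and 0.209 with vehicle and 0.141, 0.146 and 0.0896 with glutamine, with vehicle replicate 5 highest of all. Wnk4 counts per Wnk1 count were 0.187, 0.183 and 0.0714 with vehicle and 0.200, 0.173 and 0.114 with glutamine, lowest in replicate 5 and replicate 3 of their groups.

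The genes whose pattern over the 6 TEC libraries was most like that of Slc12a3 were found by the root-mean-square difference of centred log2 levels. They were Mfsd4b5 (0.102), Slc17a8 (0.149), Guca2a (0.189) and Cwh43 (0.194 log2 units), beside a predicted gene. Mfsd4b5 had 85.4, 40.5 and 49.2 CPM with vehicle and 111, 143 and 70.3 CPM with glutamine, with the same library highest and the same lowest as Slc12a3. Of the other members Calb1 (0.486), Trpv5 (0.490), Wnk4 (0.508) and Wnk1 (0.576) were nearest to Slc12a3, and Pvalb (1.07 log2 units) was farthest. These likenesses rest on 6 libraries that share the treatment groups and their depth, and are descriptions.

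Other genes linked to the distal tubule were taken from 6 lists of 50 genes, of which 45 were tested. Most of these lists were built on a role in distal transport or its regulation, so their genes can also be expressed in other cells. Bulk RNA does not show which cells held the transcripts. Of the 45 tested genes, 28 had a higher and the remainder a lower fitted level with glutamine, with a median log2 fold change of 0.215. None passed the adjusted p of 0.05 in edgeR's test. At an unadjusted p below 0.05, 4 were higher and 0 lower, where 7.23% and 5.51% of all tested genes were. These 4 were Ppp1r1a, Egf, Cwh43 and Kcnj16. All glutamine libraries lay above all vehicle libraries for 2 of the 45 genes and below them for 1. Over all tested genes these shares were 9.01% and 9.81%. Without the expression filter, edgeR passed Ppp1r1a (adjusted p = 0.00043), Egf (0.0071) and Sgk1 (0.018) of the named genes of these lists.

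Of the genes that regulate NCC, 5 of 12 tested were higher and 7 lower, with a median of -0.10. Ppp1r1a, an inhibitor of protein phosphatase 1, had 16.5, 12.5 and 15.1 CPM with vehicle and 28.9, 62.7 and 31.1 CPM with glutamine, without overlap. Its log2 fold change was 1.47 ± 0.33 (SE), with an adjusted p of 0.178 in edgeR's test, and DESeq2 gave it an adjusted p of 0.00777. The kinase gene Sgk1, a target of aldosterone, had 220.5 to 299.7 CPM with vehicle and 186, 383 and 924 CPM with glutamine, so that replicate 3 set its mean (log2 fold change 0.92 ± 0.45; adjusted p = 0.420 in edgeR's test). Stk39, which encodes SPAK, had a log2 fold change of -0.02 ± 0.34. Cul3, the scaffold that works with KLHL3, had -0.31 ± 0.24, the ligase gene Nedd4l 0.31 ± 0.27 and the SPAK partner gene Cab39 -0.23 ± 0.19. Cab39 also had no overlap, in the other direction from Ppp1r1a. It had 88.5, 97.1 and 101.6 CPM with vehicle and 79.4, 78.7 and 86.1 CPM with glutamine.

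Of the basolateral channels and sodium pump genes, 4 of 6 were higher and 2 lower, with a median of 0.30. The potassium channel gene Kcnj16 had 81.0, 68.1 and 59.8 CPM with vehicle and 90.3, 103 and 108 CPM with glutamine, without overlap (log2 fold change 0.53 ± 0.21; adjusted p = 0.329 in edgeR's test). The pump subunit genes Fxyd2 and Atp1b1 had log2 fold changes of 0.20 ± 0.20 and -0.13 ± 0.20. Kcnj10, another potassium channel gene and the other lower gene of this list, had -0.57 ± 0.59, with overlapping groups.

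Of the magnesium-handling genes, 4 of 7 tested were higher and 3 lower, with a median of 0.19. Egf, the growth factor that acts on TRPM6, had 59.2, 72.3 and 110.35 CPM with vehicle and 97.7, 223 and 172 CPM with glutamine. The groups overlapped through vehicle replicate 5 and glutamine replicate 1 (log2 fold change 1.03 ± 0.32; adjusted p = 0.247 in edgeR's test). The receptor gene Egfr had a log2 fold change of -0.0014 ± 0.21, whose sign changed with the setting, and the transcription cofactor gene Pcbd1 one of 0.29 ± 0.26, which turned lower without glutamine replicate 3. Kcna1 had 0 counts in all 6 TEC libraries.

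Of the genes of distal calcium handling and its hormones, 7 of 10 tested were higher and 3 lower, with a median of 0.40 and none at an unadjusted p below 0.05. The parathyroid hormone receptor gene Pth1r had a log2 fold change of 0.51 ± 0.24, and the plasma membrane calcium pump genes Atp2b1 and Atp2b4 had 0.47 ± 0.28 and 0.48 ± 0.30. The 3 lower genes were the calcium channel gene Trpv6 (-1.15 ± 0.84, at 0.987 to 5.23 CPM), Vdr (-0.11 ± 0.26) and Fgfr1 (-0.043 ± 0.26). Of the connecting tubule transport genes, 5 of 6 tested were higher, with a median of 0.28. Among them Klk1 (kallikrein) had 0.38 ± 0.25, the epithelial sodium channel subunit gene Scnn1a 0.51 ± 0.26, and the water channel gene Aqp2 0.32 ± 0.41, which turned lower without glutamine replicate 1. Of the other distal convoluted tubule markers, 3 of 4 tested were higher. Cwh43 had a log2 fold change of 1.24 ± 0.44 (adjusted p = 0.293 in edgeR's test), Tmem52b of 0.62 ± 0.61 and the transcription factor gene Tfap2b of -0.19 ± 0.62, and the signs of Tmem52b and Tfap2b changed when single libraries were left out.

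Markers of other segments are given beside the members, and none of them passed an adjusted p of 0.05 in the planned edgeR test. Of 9 proximal tubule markers, 9 were higher with glutamine and 5 at an unadjusted p below 0.05 (Slc22a6, Slc13a3, Slc7a13, Slc5a12 and Slc5a2), with a median log2 fold change of 0.60, close to the 0.64 of the members. Slc7a13 had a log2 fold change of 1.59 ± 0.38 and Slc13a3 one of 0.90 ± 0.35. DESeq2 gave Slc7a13 an adjusted p of 0.00298. Without the expression filter, edgeR passed Slc7a13 (adjusted p = 1.01e-06) and Slc13a3 (0.0309). The summed level of the 9 proximal markers was 2067 to 3410 CPM with vehicle and 3084 to 4210 CPM with glutamine. Vehicle replicate 5, the lowest library for 6 distal members, was the highest vehicle library for this proximal sum, and glutamine replicate 3, low for most members, was the highest of all. Slc34a1 made up a large part of the proximal sum, at 1318, 1298 and 2374 CPM with vehicle and 1952, 2595 and 2711 CPM with glutamine. Other proximal markers had another order. Slc22a6 and Slc22a8 were highest with vehicle in replicate 3, and Slc7a13 was lowest with glutamine in replicate 3. The summed level of the 9 members was 257.8 to 326 CPM with vehicle and 300.5 to 467 CPM with glutamine. Wnk1, a gene of many cell types, made up a large part of this sum. It held 145, 134 and 158 CPM with vehicle and 191, 184 and 142 CPM with glutamine, in replicate order. The sum is thus not a level of distal cells alone.

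The thick ascending limb lies just before the distal convoluted tubule. Of its 6 markers 5 were tested, 4 higher, with sums of 1047 to 2056 CPM with vehicle and 1301 to 2292 CPM with glutamine. Umod, the highest of them, had 1989, 1189 and 997 CPM with vehicle and 1226, 2110 and 1262 CPM with glutamine. Its log2 fold change was 0.14 ± 0.30 (SE). Cldn10 had 0.57 ± 0.33, Cldn16 had 0.13 ± 0.56 and Ptger3, the lower one, had -0.51 ± 0.66. Slc12a1, which encodes the cotransporter NKCC2 of that limb, had 38.3, 45.0 and 38.0 CPM with vehicle and 53.0, 143 and 104 CPM with glutamine, without overlap (log2 fold change 1.30 ± 0.32; adjusted p = 0.208 in edgeR's test). DESeq2 gave Slc12a1 an adjusted p of 0.0108, and edgeR without the expression filter one of 0.000217. Slc12a3 counts per Slc12a1 count were 2.36, 0.831 and 1.13 with vehicle and 2.08, 1.02 and 0.60 with glutamine. Of the 6 tested collecting duct markers 3 were higher and 3 lower, with sums of 60.4 to 128 and 55.4 to 132 CPM. Their sums were lowest in vehicle replicate 5 and glutamine replicate 3, as Wnk4 was.

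Tubular injury markers differed in sign among themselves. Of 6 markers 4 were lower and 2 higher with glutamine, with summed levels of 3987 to 11630 CPM with vehicle and 4455 to 6726 CPM with glutamine. Havcr1, which encodes the injury molecule KIM-1, had 793, 541 and 106 CPM with vehicle and 94.1, 49.4 and 26.2 CPM with glutamine (log2 fold change -3.08 ± 0.65; adjusted p = 0.178 in edgeR's test, and 0.0473 in DESeq2). Without vehicle replicate 5, edgeR passed Havcr1 at an adjusted p of 0.0401 and a log2 fold change of -3.56, and it also passed it without the expression filter (adjusted p = 3.4e-29). Leukocyte markers summed to 36.3 to 79.9 CPM with vehicle and 59.3 to 118 CPM with glutamine, where 5 of 6 tested were higher and Lyz2 had an unadjusted p below 0.05 (log2 fold change 1.95 ± 0.62). Neutrophil markers summed to 101 to 241 and 117 to 248 CPM, with 4 of 5 tested higher and none at that p. The share of counts in predicted, Rik and sensory receptor genes was 17.5% to 23.3% with vehicle and 26.3% to 30.8% with glutamine, and leaving those genes out left the members' log2 fold changes between 0.22 and 1.80. The part of these values in the members' differences was not tested.

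**Figure D4:**
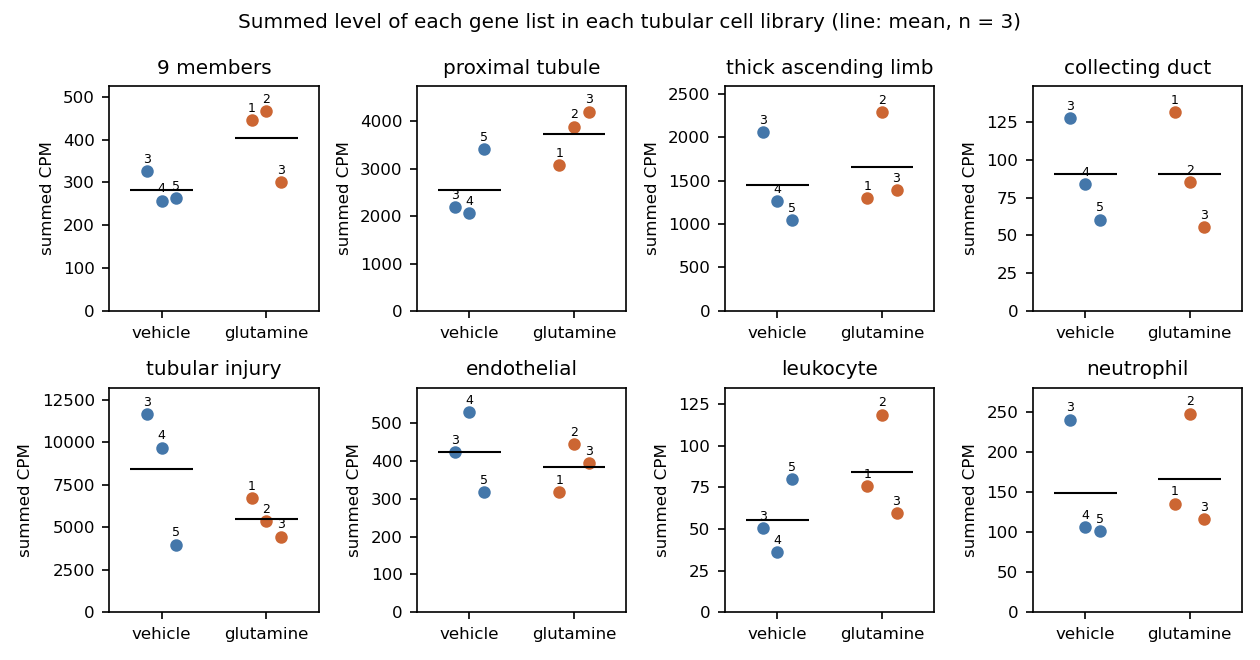
Summed TMM-scaled CPM (vertical axes from 0) of the 9 members and of 7 marker lists in each TEC library, points numbered by replicate and lines for the mean (n = 3). Vehicle replicate 5 is low for the injury sum, at 3987 CPM, and high among vehicle libraries for the proximal sum. The sum of the members includes Wnk1, a gene of many cell types, at 134 to 191 CPM. The proximal sum includes Slc34a1 at 1298 to 2711 CPM.

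In neutrophils, which have no known part in distal tubule transport, the members were read as a control. The 6 PMN libraries, 3 with vehicle and 3 with glutamine, had 20225124 to 21878335 counts each, and a count of 0 there allows a level of at most 0.137 to 0.148 CPM (counting error only). They were counted in a separate table, so levels are set beside those of TECs without a test. S100a8, a defining neutrophil gene, lay between 6511 and 26050 CPM in these 6 libraries. One library stood apart: PMN vehicle replicate 1 held 990.3 CPM of Umod, a thick ascending limb gene, against 0.648 to 30.1 CPM in the others, and 46.9 CPM of the epithelial gene Epcam against 0 to 1.30 CPM.

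Slc12a3 had 187, 0.0687 and 4.60 CPM in PMN vehicle replicates 1, 2 and 3, and 0.121, 3.72 and 0 CPM in PMN glutamine replicates 1, 2 and 3, so that 95.6% of its PMN counts came from vehicle replicate 1. Such concentration was found for 5.94% of the 6366 genes with at least 1000 counts in their highest PMN library, which held over 90% of their PMN counts in 1 library. Trpm6 had 32.4 CPM in that library, 0.190 CPM in glutamine replicate 1 and 0 counts in the other 4. Both levels in vehicle replicate 1 were above every TEC library. Pvalb, Calb1, Trpv5 and Wnk4 were at or near 0 in it, and Slc12a1 was at 0.387 CPM.

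Outside that library, Pvalb was counted only in vehicle replicate 2 (48 counts, 2.19 CPM), Calb1 reached 3.70 CPM in glutamine replicate 1, Trpv5 had 2 counts in glutamine replicate 1 and 0 elsewhere, and Wnk4 had at most 0.845 CPM. Wnk1, a kinase gene of many cell types, had 61.3, 160 and 282 CPM with vehicle and 162, 311 and 212 CPM with glutamine, in the range of the TECs or above it for 5 of 6 libraries. Klhl3 was counted in all 6 at 1.55 to 4.43 CPM. Slc8a1 had 111, 2.39 and 0 CPM with vehicle and 0, 25.1 and 95.2 CPM with glutamine. It was thus above every TEC library in PMN vehicle replicate 1 and in PMN glutamine replicates 2 and 3. Of the 9 members, then, Calb1, Trpv5 and Wnk4 were higher in every TEC library than in every PMN library, and the levels of Wnk1, Klhl3 and Slc8a1 overlapped between the cell types. Those of Pvalb overlapped too: 2.19 CPM in PMN vehicle replicate 2, against 1.43 and 2.07 CPM in TEC vehicle replicates 4 and 3. Slc12a3 and Trpm6 were above the TECs in PMN vehicle replicate 1 alone.

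**Figure D5:**
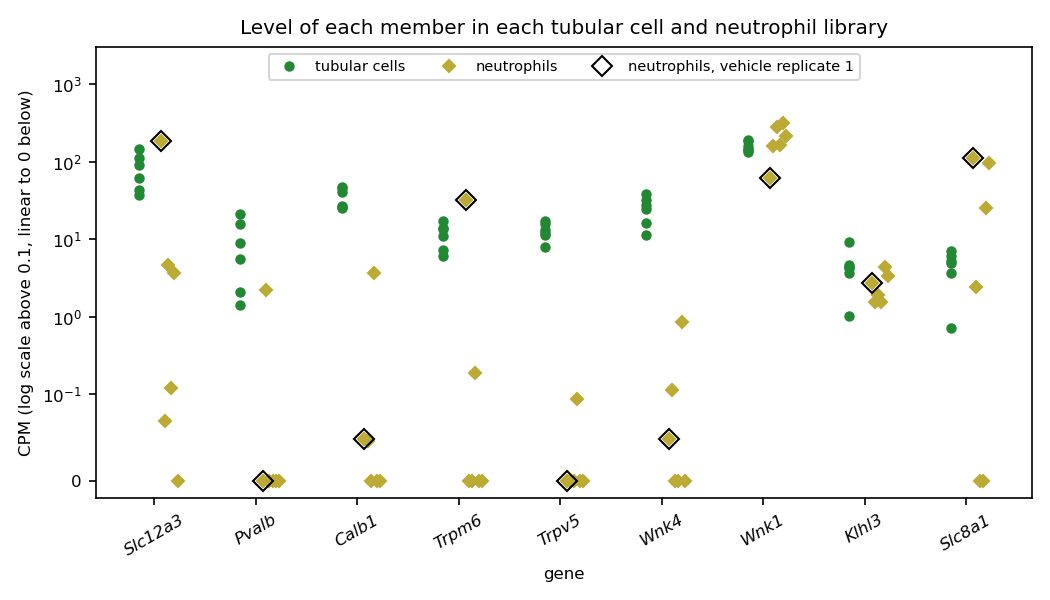
Level of each member in each of 6 TEC libraries (green circles) and 6 PMN libraries (yellow diamonds) on a CPM axis that is logarithmic above 0.1 and linear below; PMN vehicle replicate 1 is outlined. Slc12a3 at 187 CPM, Trpm6 at 32.4 CPM and Slc8a1 at 111 CPM are highest in that library, while Calb1, Trpv5 and Wnk4 are higher in all TEC than in all PMN libraries. Slc8a1 also reaches 95.2 CPM in PMN glutamine replicate 3.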

How the data were processed

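RNA-seq of 6 TEC and 6 PMN libraries was used. Per the labels, single-end reads from poly(A)-primed cDNA were processed with Trim Galore 0.6.4 and Salmon 1.0.0 on mm10, and the authors deposited an estimated count per gene symbol, not normalized; the strand setting is not given in the sources used here. The deposited PMN table, planned as plain counts, had been altered by a spreadsheet program: 3.2% of its text cells carried extra points and 0.39% had become dates. These were decoded to estimated counts, and the 2 columns of each library (correlation 0.995 to 0.996) were averaged; PMN levels were not tested. No unused column of per-sample values was left (0).

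TEC counts were rounded and fitted in edgeR 4.0.16 (R 4.3.3) with TMM scaling, the default expression filter, glmQLFit and glmQLFTest, and Benjamini-Hochberg adjustment over 14734 genes, with a threshold of 0.05. Standard errors came from the fold change and F. DESeq2 1.42.0, limma-voom (limma 3.58.1), other scalings and filters, and fits without each library were alternatives. On simulated counts of 14205 genes for this comparison, 10.7% of genes changed by 1 log2 unit and 67.9% of those changed by 2 were recovered. Positions and lengths came from GENCODE M21.

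The members and lists were chosen with earlier results of these data known. Named genes were the members, of each list the 3 with the highest mean level and any with an unadjusted p below 0.05 (for lists of other cell types, mainly the latter are printed), and the 5 most like Slc12a3, predicted genes unnamed. Of the listed genes, 3 are not reported here and were left out of the lists, which made Egfr a named gene. Stk39, Cul3, Kcna1, Kcnj10, Trpv6, Vdr, Fgfr1, Prom1, Ptprc, Sox9, Cldn16 and Ptger3 were named after their values were seen.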

Additional observations from a re-analysis of the deposited data

Results flagged for a closer look

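In the PMN libraries, which entered no comparison between groups, 8 of the 9 members were counted above the 3 counts that a count of 0 allows in at least 1 library, as were 33.7% of the 50434 genes of that table. The highest PMN level was 187 CPM for Slc12a3, 32.4 CPM for Trpm6 and 111 CPM for Slc8a1, all in vehicle replicate 1. Slc8a1 also had 95.2 CPM in glutamine replicate 3. The highest level was 2.19 CPM for Pvalb in vehicle replicate 2, and 3.7 CPM for Calb1 in glutamine replicate 1. In glutamine replicate 2 it was 311 CPM for Wnk1, 4.43 CPM for Klhl3 and 0.845 CPM for Wnk4.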

How the results depend on the processing

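Over 13 alternatives, 110 of 116 log2 fold changes of members kept their sign and their side of an adjusted p of 0.05, as did 327 of 351 of the 27 other named genes. Without the expression filter, edgeR passed 2 members (adjusted p = 0.0119 for Pvalb and 0.0424 for Slc12a3) and 425 genes in all, and DESeq2 passed 190 genes; why was not tested. Leaving out each library, the members with an unadjusted p below 0.05 numbered 1 to 3 and all genes past the adjusted p 0 to 36 (36 without glutamine replicate 2, 4 without vehicle replicate 5). The genes of the 6 other distal lists with an unadjusted p below 0.05 numbered 4 in the planned fit, 7 without predicted, Rik and sensory receptor genes, and 1 (without glutamine replicate 2) to 9 (without glutamine replicate 3) leaving out each library. The sign of Slc8a1 turned under total counts (-0.043), and that of Egfr with RLE scaling (0.0077), the filter of 10 counts (0.0072) and with predicted, Rik and sensory receptor genes left out (0.050). Leaving out each library, log2 fold changes ran from -0.34 to 0.69 for Slc8a1, -0.024 to 0.45 for Trpv5, -0.0060 to 0.48 for Pcbd1, -0.057 to 0.068 for Egfr, -0.36 to 0.60 for Aqp2, -1.06 to 0.52 for Tfap2b and -0.17 to 1.01 for Tmem52b. With at least 10 counts required in every library, Slc8a1 was not tested. No paired analysis was run because nothing in the labels pairs a glutamine library with a vehicle library, and PMN levels came from no test. Klhl3, Pvalb and Slc8a1 had 7 to 129 counts a library, and depth as a cause of their wide intervals was not tested.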

Other observations

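Markers of further kidney cell types were counted in the TEC libraries. Of 4 podocyte markers 3 were higher with glutamine, with summed levels of 45.3 to 96.1 CPM with vehicle and 83.1 to 111 CPM with glutamine and 0 past an unadjusted p of 0.05. Of 6 endothelial markers 5 were lower and 1 higher, with sums of 317 to 528 and 317 to 443 CPM, and again 0 past that p. Of 5 stromal markers 3 were tested and 2 were higher, with sums of 7.99 to 13.4 and 11.4 to 26.7 CPM and 0 past that p. None of these passed an adjusted p of 0.05 in edgeR's test, and the groups of each sum overlapped.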
